A study of Mus musculus with 18 samples.

Results

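Solute carriers are the membrane proteins of the Slc gene families, which move amino acids, sugars, metals, ions, vitamins and metabolites across the cell surface and the membranes of organelles. Some take solutes up or export them at the plasma membrane, others serve mitochondria, the Golgi or lysosomes. Macrophages digest what they engulf, and lysosomal carriers return the amino acids, nucleosides and metals set free. Their expression was followed in mouse bone marrow macrophages across 6 groups of 3 polyadenylated RNA libraries. The genes taken were those annotated as protein-coding with an Slc symbol and a mean of at least 5 CPM (the count scaled to the library's total) over the 18 libraries. Slc2a1, Slc16a3, Slc40a1, Slc11a1, Slc11a2, Slc48a1 and Slc7a11 were left out by name. This gave 157 genes of the 371 protein-coding Slc genes in a table of 54532 genes, and 207 Slc genes were under the level. The genes were thus chosen by their mean level over all libraries, and levels are given as a description. Just inside the limit were Slc22a21 at 5.37 CPM and Slc39a7 at 5.58 CPM, and just outside it were Slc25a14 at 4.97 CPM and Slc24a3 at 4.47 CPM. All 157 passed the count filter of the fit, and 147 averaged at least 5 CPM in every group. The other 10, Slc9b2, Slc9a5, Slc35g1 and Slc15a2 among them, reached the limit through the groups in which they were high. Of the 157 genes, 154 encode carriers, and 3 (Slc9a3r1, Slc4a1ap and Slc7a6os) carry an Slc symbol for another reason, as partner or neighbouring genes.

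The knockout-labelled groups (MyS1KO) carried loxP-flanked Smad1 alleles and Cre recombinase from the lysozyme M locus, which is active in myeloid cells; the floxed-labelled groups (Smad1fl/fl) carried the loxP-flanked alleles without Cre. Mice were 2 to 3 months old. Adherent macrophages grown in CSF-1 went without serum for about 16 h and were then given TGF-β1 at 10 ng/ml or BMP4 at 50 ng/ml for 4 h, or left untreated. Whether libraries of one group come from different mice or cultures is not in the labels, so p-values here reflect only how far these libraries differ, which may include technical spread. TGF-β1 and BMP4 are ligands of one growth factor superfamily: TGF-β1 signals mainly through Smad2 and Smad3, and BMP4 through Smad1, Smad5 and Smad8.

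The label checks below bear on every comparison between genotypes. Smad1, counted over the whole gene, averaged 26.4 CPM in untreated knockout-labelled libraries and 30.8 CPM in untreated floxed-labelled ones; a count over the whole gene can include reads from outside the deleted part and checks the deletion in neither direction. Lyz2, the gene whose locus holds the Cre in the knockout line, was at 13283 to 17535 CPM in the 9 knockout-labelled libraries, at 37.4 to 75.2 CPM in the 3 floxed-labelled libraries numbered 1, and at 7933 to 9919 CPM in the 6 floxed-labelled libraries numbered 2 and 3. Lysozyme M is the product of Lyz2, and Cre inserted there disrupts the allele that carries it. The Lyz2 levels go against the labels, and the floxed-labelled libraries numbered 1 stand apart from their own groups, so the genotypes are called knockout-labelled and floxed-labelled throughout. None of the 157 genes differed by 1.5-fold or more in the same direction between the floxed-labelled library numbered 1 and every other library of its group in all 3 treatments. Counts that lead a paragraph were also made in 15 libraries, without those 3.

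The libraries held 15153296 to 24639163 counts. The 7 macrophage markers summed to 10014 to 11663 CPM. The 7 markers of neutrophils and their precursors summed to 61.6 to 162 CPM. Ly6g was at most at 0.232 CPM, and the other 6 were present in every library. S100a9 was at 24.4 to 62.0 CPM, S100a8 at 11.5 to 29.5 CPM and Ltf at 10.7 to 31.6 CPM. Mpo was at 8.93 to 20.4 CPM, Elane at 2.48 to 10.7 CPM and Camp at 3.46 to 9.67 CPM. The 5 dendritic cell markers reached at most 4.90 CPM together, the 5 stromal markers 10.4 CPM and the 5 lymphoid markers 1.56 CPM. Of the 5 erythroid, mast cell and platelet markers, Pf4, which macrophages also express, accounted for nearly all of the 150 to 259 CPM, and Hba-a1, Hbb-bs, Gata1 and Cpa3 stayed under 1 CPM. With TGF-β1 the dendritic markers summed to 3.33 to 4.69 CPM, against 2.35 to 3.13 CPM untreated, in knockout-labelled libraries. In floxed-labelled libraries they summed to 3.53 to 4.90 CPM with TGF-β1 and 2.43 to 3.12 CPM untreated. The part of these markers in the responses below was not tested.

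The carriers together took 12690 to 13814 CPM in each library, and a few genes held much of that. Slc6a6, the taurine carrier, held 13.9% of the summed level at 1827 CPM, and the 10 most abundant genes held 39.7%. Per kilobase of the gene length in the deposited table, the highest levels were those of Slc6a6 at 216, the mitochondrial ADP/ATP carrier Slc25a5 at 135, the sugar phosphate carrier Slc37a2 at 110, the large neutral amino acid carrier Slc43a2 at 83.6 and the zinc importer Slc39a1 at 72.5 CPM per kilobase. The median over the 157 genes was 8.20 CPM per kilobase. Between libraries of 1 group the carriers varied little: the median coefficient of variation was 6.34%, and 121 genes were under 10%. In bulk RNA, fewer cells that express a gene and less RNA per cell cannot be told apart.

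TGF-β1 shifted a broad set of carriers in both genotype labels, in both directions, and almost none were called with BMP4. Of all genes tested, 0.572% in knockout-labelled and 0.0% in floxed-labelled macrophages were called with BMP4, so small changes may have been missed. At an unadjusted p under 0.05 (edgeR) there were 16 and 15 carriers, beside 1798 and 1103 of all 14684 genes. With TGF-β1, 31 carriers rose and 38 fell in knockout-labelled macrophages, and 32 rose and 33 fell in floxed-labelled ones (edgeR's quasi-likelihood test, Benjamini-Hochberg adjusted p under 0.05 over 14684 genes). These are 43.9% and 41.4% of the 157 genes, against 34.6% and 33.0% of all genes tested. Of all genes, 17.6% rose and 17.1% fell in knockout-labelled macrophages, and 17.0% rose and 16.0% fell in floxed-labelled ones. Of the 9837 genes that average 5 CPM or more, the level the carriers were held to, 43.1% were called in knockout-labelled and 40.8% in floxed-labelled macrophages, so the share of carriers called was close to that of other genes of this level. Changes of at least 2-fold were called for 14 carriers in knockout-labelled macrophages, or 8.92%, against 6.17% of the genes of this level, and for 16 carriers in floxed-labelled macrophages, or 10.2%, against 6.31%. The median log2 change over the carriers was -0.04 in knockout-labelled and -0.03 in floxed-labelled macrophages, beside 0.02 and 0.01 for the genes of this level.

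The carriers called in the 2 genotype labels were mostly the same. Of the 69 called in knockout-labelled macrophages 84.1% were also called in floxed-labelled ones, and 89.2% of the 65 called in floxed-labelled macrophages were called in knockout-labelled ones. The shared 58 all moved in the same direction, 28 higher and 30 lower, and 7 rose and 7 fell at least 2-fold in both. Among these are Slc9b2 and Slc35g1, which met the 5 CPM mean through the groups in which they were high. Across the 157 genes, which share libraries and are not independent, the log2 changes of the 2 labels had a Pearson r of 0.98 and a Spearman rho of 0.92. Among genes with a promoter window (described below), 23 of 121 carriers rose and 25 fell in both labels. Of 7811 such genes with at least 5 CPM, 1430 rose and 1307 fell in both. No overlap or correlation over all genes tested is given here, and nothing particular to the carriers is read from these values. The test of the difference between the 2 TGF-β1 responses called 0 carriers by edgeR, against 0.00681% of all genes; 3 had an unadjusted p under 0.05, and DESeq2 called 0. In the 15 libraries, 55 of the 65 floxed-labelled calls remained and all 65 kept their sign.

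**Figure D1:**
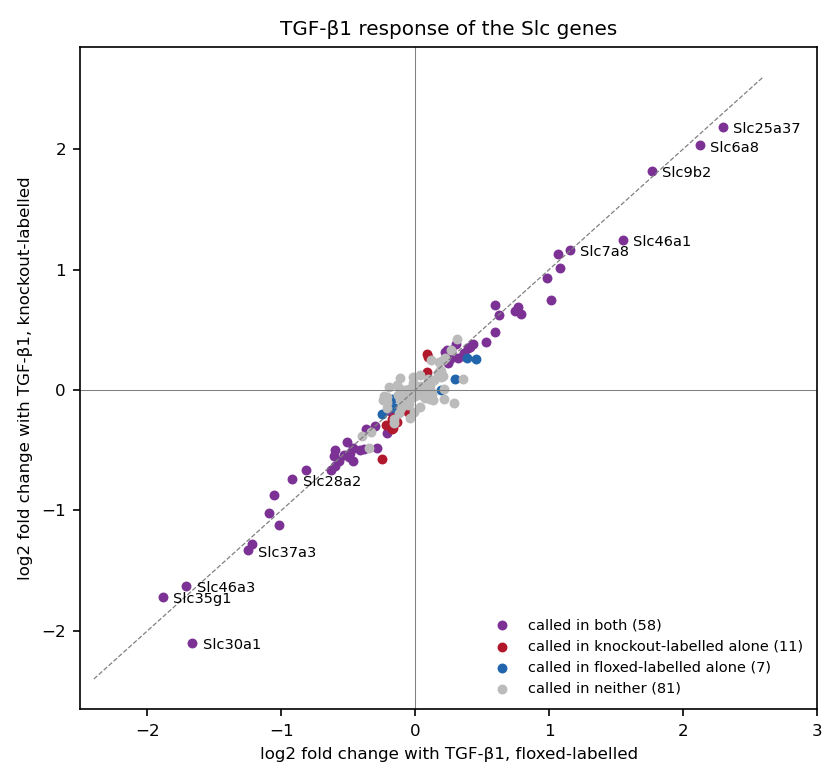
Each point is 1 of the 157 genes, placed by its log2 fold change with TGF-β1 against untreated in floxed-labelled (x axis) and knockout-labelled (y axis) macrophages; colours mark where edgeR called it, and the dashed line marks equal changes. The 58 genes called in both lie along the dashed line, from Slc30a1 and Slc35g1 at the lower left to Slc25a37 at the upper right.

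Among the 30 mitochondrial carriers, which move metabolites, nucleotides and metal ions across the inner mitochondrial membrane, 1 gene rose far more than the rest. Slc25a37 (mitoferrin-1, the importer of iron for heme and iron-sulfur cluster synthesis; ENSMUSG00000034248, chromosome 14, 69241848 to 69285112, minus strand, GRCm38) was at 332, 335 and 345 CPM with TGF-β1 and at 79.3, 68.8 and 77.8 CPM untreated in knockout-labelled libraries. The floxed-labelled values were 330, 339 and 326 CPM with TGF-β1 and 63.3, 73.9 and 69.6 CPM untreated. The TGF-β1 libraries stood far above the untreated ones in both labels, with a rise of 2.19 ± 0.071 on the log2 scale in knockout-labelled (SE; edgeR adjusted p = 1.55e-14) and of 2.30 ± 0.071 in floxed-labelled macrophages (adjusted p = 1.03e-14). With BMP4 its log2 change was -0.02 in knockout-labelled and 0.00 in floxed-labelled macrophages.

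The other mitochondrial carriers moved less. In all 5 rose and 8 fell in knockout-labelled macrophages, and 5 rose and 6 fell in floxed-labelled ones. Slc25a25, a calcium-regulated carrier of ATP-magnesium and phosphate, was at 28.0, 22.9 and 27.5 CPM with TGF-β1 and 13.4, 10.3 and 15.8 CPM untreated in knockout-labelled libraries and rose by 1.02 and, in floxed-labelled ones, by 1.08 on the log2 scale. Slc25a36, a pyrimidine nucleotide carrier, was at 111, 118 and 114 CPM with TGF-β1 and 179, 165 and 170 CPM untreated in knockout-labelled libraries, a fall of 0.56 on the log2 scale (adjusted p = 3.3e-06, edgeR), and it fell by 0.49 in floxed-labelled ones. Slc25a45 fell by 0.43 in knockout-labelled and 0.51 in floxed-labelled macrophages, and Slc25a24, the ATP-magnesium and phosphate carrier related to Slc25a25, fell by 0.30 in both. The most abundant members were not called: Slc25a3, the phosphate carrier, had log2 changes of 0.03 and 0.01, and Slc25a5 of 0.01 and -0.04.

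The 21 carriers of amino acids, peptides and related solutes held more higher than lower calls, with 9 higher and 3 lower in knockout-labelled and 9 higher and 2 lower in floxed-labelled macrophages, the same 9 rising in both. With the library number within genotype as a block the counts were 10 higher and 5 lower in knockout-labelled and 9 higher and 4 lower in floxed-labelled macrophages, and in the 15 libraries the floxed-labelled counts were 9 and 1. Of all genes tested 17.6% rose and 17.1% fell in knockout-labelled macrophages, and 17.0% rose and 16.0% fell in floxed-labelled ones. These shares, from the fit of 18 libraries without a block, stand beside the counts of every class from that fit. Of the genes that average 5 CPM or more, 43.1% were called in knockout-labelled and 40.8% in floxed-labelled macrophages in either direction. No matching shares are given for the counts with the block or in the 15 libraries. No class was tested against any of these shares. Slc6a8, the creatine carrier (ENSMUSG00000019558, chromosome X), was at 332, 399 and 337 CPM with TGF-β1 and at 83.1, 99.3 and 83.2 CPM untreated in knockout-labelled libraries. Its floxed-labelled levels were 414, 316 and 328 CPM with TGF-β1 and 94.9, 66.4 and 86.0 CPM untreated. The groups did not overlap, and the rise was 2.03 ± 0.149 on the log2 scale in knockout-labelled (adjusted p = 1.82e-09, edgeR) and 2.13 ± 0.149 in floxed-labelled macrophages (adjusted p = 8.86e-10).

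Slc7a8, a light chain that exchanges neutral amino acids when bound to the heavy chain Slc3a2, was at 268, 229 and 260 CPM with TGF-β1 and at 125, 94.5 and 124 CPM untreated in knockout-labelled libraries. It rose by 1.17 and 1.16 on the log2 scale in knockout-labelled and floxed-labelled macrophages, and Slc3a2 rose by 0.39 and 0.31. Slc36a1, which moves small amino acids with protons out of the lysosome, was at 161, 171 and 173 CPM with TGF-β1 and 114, 101 and 104 CPM untreated in knockout-labelled libraries, a rise of 0.69 on the log2 scale (adjusted p = 1.08e-08, edgeR), and rose by 0.77 in floxed-labelled ones. Slc38a7, a lysosomal glutamine and asparagine carrier, rose by 0.70 and 0.60. Slc15a4, a lysosomal histidine and peptide carrier that takes part in endosomal Toll-like receptor signalling, fell by 0.63 and 0.60. Slc38a9, the arginine-sensing carrier of the lysosome, fell by 0.17 and 0.19. Its knockout-labelled call was lost without TGF-β1 library 1 or 3 or untreated library 1 or 3 (adjusted p 0.0716 to 0.125), and its floxed-labelled call without TGF-β1 library 2 (0.0953) and in the 15 libraries (0.0557).

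The 2 most abundant carriers of this class went in opposite directions in knockout-labelled macrophages. Slc43a2 was at 1066, 1068 and 1069 CPM with TGF-β1 and at 833, 806 and 860 CPM untreated in knockout-labelled libraries. Floxed-labelled values were 896, 965 and 945 CPM with TGF-β1 and 681, 714 and 723 CPM untreated. It rose by 0.38 and 0.44 on the log2 scale. Slc6a6 was at 1634, 1827 and 1695 CPM with TGF-β1 and at 2013, 2129 and 2066 CPM untreated in knockout-labelled libraries, where it fell by 0.24 (adjusted p = 0.0109, edgeR). In floxed-labelled libraries it was at 1631, 1575 and 1553 CPM with TGF-β1 and 1962, 1815 and 1704 CPM untreated; its log2 change of -0.17 had an adjusted p of 0.0657, and of 0.00108 with the library number within genotype as a block. The summed level of the class was 5061 ± 100 CPM with TGF-β1 and 4657 ± 45.8 CPM untreated in knockout-labelled libraries, and 4777 ± 46.2 and 4263 ± 77.5 CPM in floxed-labelled ones (SD, n = 3 each).

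Of the 22 metal carriers, 3 rose and 5 fell in each label, and the zinc exporter at the cell surface fell far more than the others. With the block 5 rose and 6 fell in knockout-labelled and 6 rose and 6 fell in floxed-labelled macrophages. Slc30a1, that exporter (ENSMUSG00000037434, chromosome 1, 191906767 to 191913247, plus strand), was at 5.94, 3.54 and 6.29 CPM with TGF-β1 and at 23.5, 22.4 and 22.8 CPM untreated in knockout-labelled libraries. Its floxed-labelled levels were 6.74, 5.88 and 8.01 CPM with TGF-β1 and 21.5, 24.0 and 21.3 CPM untreated. The groups lay far apart: it was 4.29-fold lower in knockout-labelled and 3.17-fold lower in floxed-labelled macrophages (SE on the log2 scale 0.166 and 0.155; edgeR adjusted p = 5.32e-09 and 5.16e-08). The difference between the 2 labels, -0.44 ± 0.228, had an unadjusted p of 0.0712 and an adjusted p of 1.00 in the edgeR interaction test.

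Other zinc and copper carriers fell with it by smaller steps. Slc30a5, which loads zinc into the secretory pathway, fell by 0.52 and 0.49 in knockout-labelled and floxed-labelled macrophages. Slc39a6, a zinc importer, was at 52.9, 50.9 and 63.7 CPM with TGF-β1 and 82.3, 91.8 and 95.7 CPM untreated in knockout-labelled libraries and fell by 0.66 and 0.63. Slc31a2, an endosomal and lysosomal copper carrier, fell by 0.54 and 0.53, and Slc39a1 by 0.16 in both. On the rising side was Slc39a8, an importer of zinc and manganese, by 0.27 and 0.32; its knockout-labelled call was lost without TGF-β1 library 1 or 2 or untreated library 1 or 2 (adjusted p 0.0600 to 0.0824). Slc39a10, the metal carrier second in level, had log2 changes of -0.03 and 0.02 and was not called.

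Of the 11 sugar and polyol carriers, 1 rose, 5 fell and 5 were not called in each label; with the block the floxed-labelled counts were 2 higher and 5 lower. Slc37a2, a sugar phosphate carrier of the endoplasmic reticulum membrane, was at 854, 848 and 866 CPM with TGF-β1 and at 677, 686 and 679 CPM untreated in knockout-labelled libraries, and rose by 0.36 and 0.41 on the log2 scale. Its relatives Slc37a3 and Slc37a1 went the other way. Slc37a3 was at 8.32, 9.93 and 10.3 CPM with TGF-β1 and at 23.9, 25.1 and 24.3 CPM untreated in knockout-labelled libraries. Floxed-labelled values were 8.18, 9.78 and 10.0 CPM with TGF-β1 and 22.0, 21.0 and 25.4 CPM untreated. It fell by 1.33 ± 0.102 and 1.25 ± 0.099 (edgeR adjusted p = 3.46e-09 and 5.58e-09), and Slc37a1 fell by 0.87 and 1.05. Slc45a4, of a family of proton-coupled sugar carriers, fell by 1.12 and 1.02. The inositol carrier Slc5a3 fell by 0.66 and 0.81, and the intracellular glucose carrier Slc2a8 by 0.48 and 0.46. The high-affinity glucose carrier Slc2a3 had log2 changes of -0.24 and -0.16 and was not called (adjusted p = 0.175 and 0.386, edgeR; 0.0374 in knockout-labelled macrophages with the library number within genotype as a block). With Slc37a2 included, the summed class level was higher with TGF-β1, at 1082 ± 13.5 against 1006 ± 7.22 CPM untreated in knockout-labelled libraries and 1058 ± 13.8 against 949 ± 17.3 CPM in floxed-labelled ones (SD, n = 3 each).

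The 12 carriers of vitamins, choline and lipids held large changes both ways, with 4 higher and 3 lower in each label. Slc46a1, the proton-coupled folate carrier, which also takes up heme, was at 22.8, 26.0 and 28.1 CPM with TGF-β1 and at 10.5, 11.1 and 11.4 CPM untreated in knockout-labelled libraries. Floxed-labelled libraries had 30.1, 26.7 and 24.8 CPM with TGF-β1 and 10.1, 9.23 and 8.94 CPM untreated. No TGF-β1 library overlapped an untreated one. Slc46a1 rose by 1.25 ± 0.097 and 1.55 ± 0.096 on the log2 scale (edgeR adjusted p = 4.61e-09 and 1.43e-10). Its relative Slc46a3, a lysosomal carrier that exports catabolites and muramyl peptides, moved the other way.

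Slc46a3 was at 32.7, 35.8 and 33.2 CPM with TGF-β1 and at 106, 110 and 104 CPM untreated in knockout-labelled libraries. Floxed-labelled values were 33.8, 33.2 and 32.9 CPM with TGF-β1 and 109, 116 and 109 CPM untreated. The 6 TGF-β1 libraries lay close together and the fall was 1.63 ± 0.062 and 1.71 ± 0.061 on the log2 scale (edgeR adjusted p = 1.32e-13 and 5.42e-14). Slc27a1, a fatty acid uptake protein, was at 519, 560 and 534 CPM with TGF-β1 and 270, 332 and 256 CPM untreated in knockout-labelled libraries and rose by 0.93 and 0.98. The vitamin C carrier Slc23a2 rose by 0.35 and 0.39. The choline carrier-like Slc44a2 fell by 0.29 and 0.19, the second with an adjusted p of 0.0826 in the 15 libraries. The thiamine carrier Slc19a2 fell by 0.48 and 0.29, and its floxed-labelled call was lost without TGF-β1 library 1 or 3 or untreated library 2 or 3 (adjusted p 0.0824 to 0.305).

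Ion carriers of the cell surface and endosomes differed by group. Among 10 cation exchangers, 4 rose and 3 fell in knockout-labelled macrophages, and 4 rose and 1 fell in floxed-labelled ones; the floxed-labelled count was 5 higher and 3 lower with the library number as a block, and 3 higher and 0 lower in the 15 libraries. Slc9b2, a sodium-proton exchanger known from osteoclasts, was at 15.2, 14.5 and 13.3 CPM with TGF-β1 and at 4.52, 3.99 and 3.88 CPM untreated in knockout-labelled libraries. Floxed-labelled values were 12.4, 9.33 and 9.79 CPM with TGF-β1 and 3.12, 2.87 and 3.45 CPM untreated. It rose by 1.82 ± 0.148 and 1.77 ± 0.149 on the log2 scale. Slc9b2 and Slc9a5 reached the 5 CPM mean through the groups in which they were high, so their changes are given as a description. Both are among the 4 cation exchangers counted as higher in each label. Slc9a5, another sodium-proton exchanger, rose by 0.75 and 1.01, and Slc8b1, the mitochondrial sodium-calcium exchanger, by 0.26 in both, with an adjusted p of 0.0700 in floxed-labelled macrophages of the 15 libraries.

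None of the 13 carriers of inorganic anions rose; 4 fell in knockout-labelled and 2 in floxed-labelled macrophages, and the floxed-labelled count with the block was 1 higher and 3 lower. Slc12a7, a potassium-chloride cotransporter (ENSMUSG00000017756, chromosome 13, 73733094 to 73816754, plus strand), was at 70.8, 55.4 and 68.7 CPM with TGF-β1 and at 169, 151 and 162 CPM untreated in knockout-labelled libraries. It was at 62.4, 63.7 and 60.3 CPM with TGF-β1 and at 153, 150 and 140 CPM untreated in floxed-labelled ones. The groups did not overlap. Slc12a7 fell by 1.28 ± 0.082 and 1.22 ± 0.082 on the log2 scale (edgeR adjusted p = 2.71e-10 and 4.6e-10). Slc12a9 of the same family fell by 0.49 and 0.38.

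Of the 5 carboxylate carriers, 1 rose and 2 fell in knockout-labelled and 1 rose and 1 fell in floxed-labelled macrophages; with the block the counts were 2 higher and 3 lower in each. Slc16a7, a monocarboxylate carrier with high affinity for pyruvate and lactate, was at 30.4, 31.0 and 32.0 CPM with TGF-β1 and at 62.3, 68.0 and 63.3 CPM untreated in knockout-labelled libraries. It fell by 1.02 and 1.09 on the log2 scale, and the lactate and pyruvate carrier Slc16a1 rose by 0.62 in both. Of the 5 nucleoside and nucleobase carriers, 1 rose and 2 fell in each label, and 2 rose and 2 fell in floxed-labelled macrophages with the block. Slc29a3, the lysosomal nucleoside carrier, was at 173, 158 and 167 CPM with TGF-β1 and at 126, 113 and 124 CPM untreated in knockout-labelled libraries and rose by 0.48 and 0.60. Slc29a1, a nucleoside carrier of the cell surface, fell by 0.50 and 0.42, and Slc28a2, a sodium-coupled one, by 0.74 and 0.92. Slc28a2 varied between libraries, at 18.7, 34.7 and 33.2 CPM with TGF-β1 and 42.8, 54.7 and 50.8 CPM untreated in knockout-labelled ones, where its call was lost without TGF-β1 library 1 or untreated library 2 or 3 (adjusted p 0.0625 to 0.129).

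The 20 nucleotide sugar carriers and their relatives, which feed glycosylation in the Golgi and endoplasmic reticulum, held calls in both directions. In knockout-labelled macrophages 2 rose and 2 fell, or 3 and 4 with the block. In floxed-labelled ones 3 rose and 4 fell, against 3 and 2 in the 15 libraries and 4 and 4 with the block. The 15 libraries also make the floxed-labelled groups smaller, and no direction is read from these counts. Slc35g1 was at 3.10, 3.49 and 3.20 CPM with TGF-β1 and at 13.1, 8.89 and 10.9 CPM untreated in knockout-labelled libraries and fell by 1.72 and 1.88. It reached the 5 CPM mean through the groups in which it was high, so its fall is given as a description. The GDP-fucose carrier Slc35c1 rose by 0.33 and 0.27, and Slc35c2 fell by 0.55 and 0.60. Of the 5 carriers of organic ions, drugs and hormones, Slc22a4, the ergothioneine carrier, rose by 1.13 and 1.07; in this class 1 rose and 1 fell in knockout-labelled and 1 rose and 2 fell in floxed-labelled macrophages, where the counts were 2 and 2 with the block and 1 and 1 in the 15 libraries. The 3 genes with an Slc symbol that encode no carrier were called in neither label, with log2 changes between -0.07 and 0.00.

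**Figure D2:**
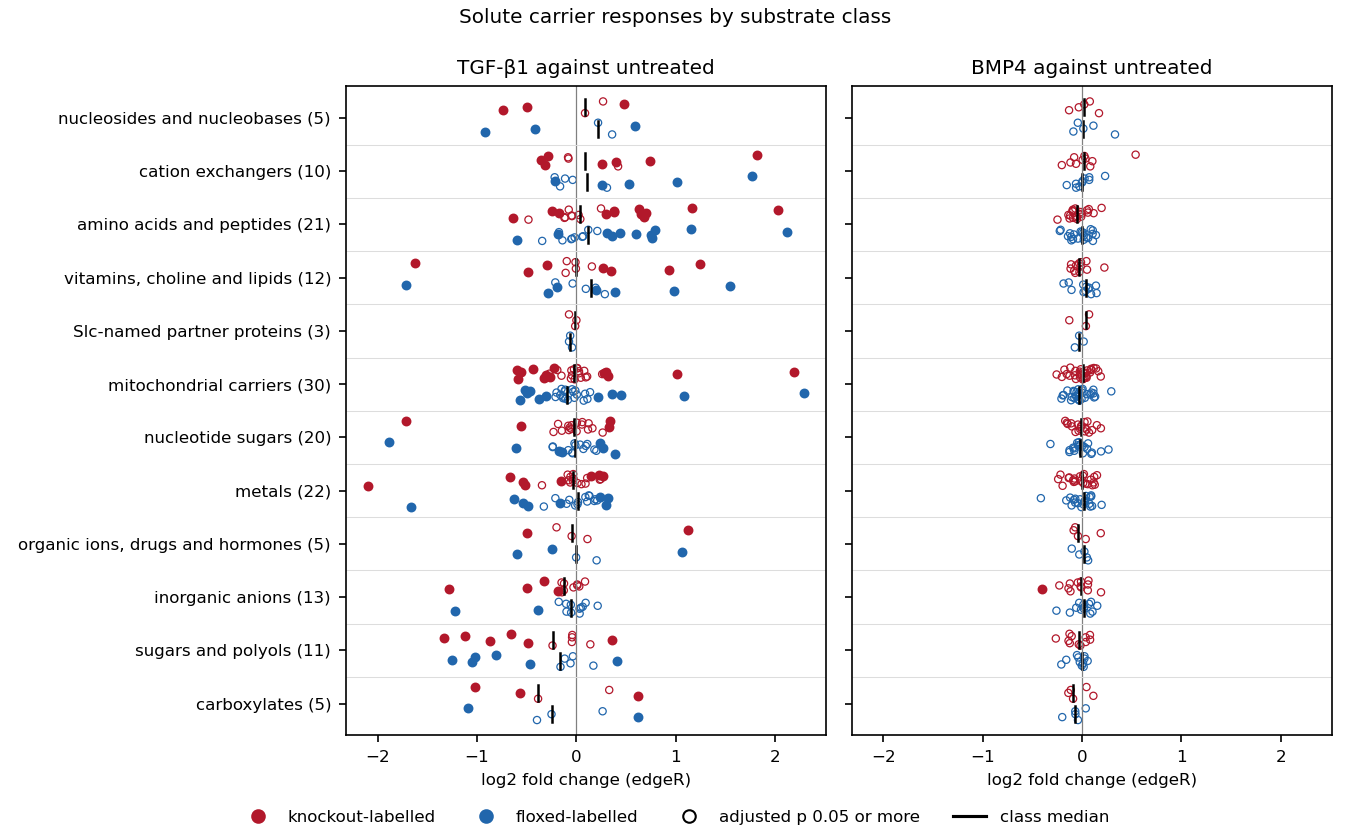
Each point is 1 gene in its substrate class, placed by its log2 fold change with TGF-β1 (left) or BMP4 (right) against untreated; knockout-labelled values are above floxed-labelled ones, filled points passed an adjusted p of 0.05 in edgeR, and bars are class medians. TGF-β1 points reach from Slc30a1 and Slc35g1 on the left to Slc25a37 on the right, and 1 BMP4 point, Slc12a7 in knockout-labelled macrophages, is filled.

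**Figure D3:**
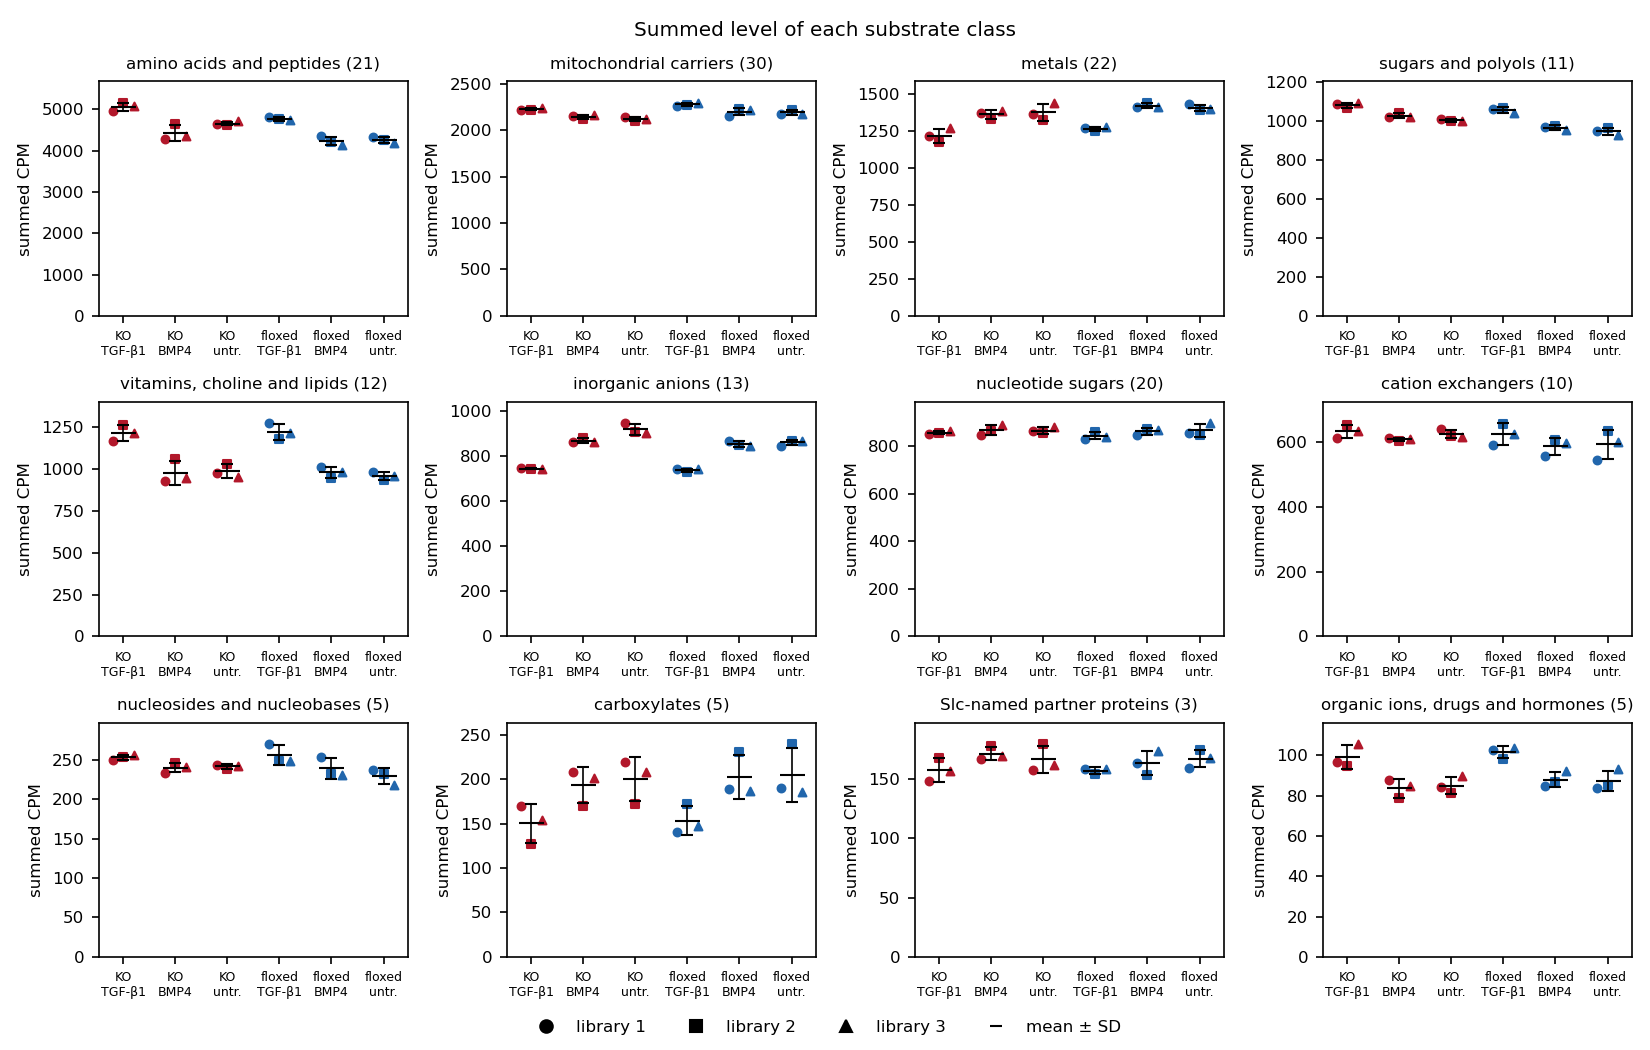
Summed CPM of the genes of each substrate class (y axis, from 0) in every library of the 6 groups; points are libraries, shaped by number, and bars are the mean and SD of 3. Sums for amino acids and peptides reached 5061 CPM on average with TGF-β1 in knockout-labelled libraries, and sums for inorganic anions were lowest with TGF-β1 in both labels, at 743 and 736 CPM.

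Promoters of 4 carriers are shown because these genes changed with TGF-β1 in both labels and hold matches to a searched motif. RefSeq gives a window of 250 bases before to 50 after the gene start for 121 of the 157 genes (GRCm38.p6). The RefSeq start lay within 1000 bases of the gene start in the deposited table for 111 of them, the 4 shown included, and farther for 10. CACGTG is the core of the element found at many lysosomal genes, TGCACNC or TGCGCNC is the core of the metal response element, and CAGAC is a Smad-binding sequence; both strands were searched. The capitals mark the matches, Slc30a1 for the metal response core (chr1:191906531-191906830, plus strand, matches on the other strand), Slc37a3 (chr6:39377658-39377957, minus strand) and Slc36a1 (chr11:55204090-55204389, plus strand) for CACGTG, and Slc46a1 (chr11:78465451-78465750, plus strand) for CAGAC.
Slc30a1: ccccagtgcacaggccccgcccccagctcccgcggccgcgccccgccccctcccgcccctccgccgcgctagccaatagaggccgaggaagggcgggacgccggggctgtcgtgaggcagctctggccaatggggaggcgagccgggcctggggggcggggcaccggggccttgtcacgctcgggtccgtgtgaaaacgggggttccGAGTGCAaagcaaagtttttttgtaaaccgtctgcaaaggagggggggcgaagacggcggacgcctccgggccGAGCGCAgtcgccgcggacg
Slc37a3: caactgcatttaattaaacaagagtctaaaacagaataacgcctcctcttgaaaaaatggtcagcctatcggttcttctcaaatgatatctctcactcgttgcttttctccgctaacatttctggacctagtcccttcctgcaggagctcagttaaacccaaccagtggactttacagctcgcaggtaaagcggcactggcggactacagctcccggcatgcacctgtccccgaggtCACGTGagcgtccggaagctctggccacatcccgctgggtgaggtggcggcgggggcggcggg
Slc36a1: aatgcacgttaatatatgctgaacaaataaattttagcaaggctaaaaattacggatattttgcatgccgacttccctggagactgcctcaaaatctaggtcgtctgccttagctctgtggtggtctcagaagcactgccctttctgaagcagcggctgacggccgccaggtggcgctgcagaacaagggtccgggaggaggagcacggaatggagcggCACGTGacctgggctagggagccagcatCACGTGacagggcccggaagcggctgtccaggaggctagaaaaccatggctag
Slc46a1: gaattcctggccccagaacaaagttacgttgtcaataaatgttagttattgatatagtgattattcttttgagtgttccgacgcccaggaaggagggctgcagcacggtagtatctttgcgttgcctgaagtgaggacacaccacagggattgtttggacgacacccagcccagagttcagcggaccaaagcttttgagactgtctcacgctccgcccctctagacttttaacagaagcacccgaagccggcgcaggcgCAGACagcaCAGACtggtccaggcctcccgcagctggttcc

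Matches were found at carriers of either direction. CACGTG stood in 4 of 23 windows of carriers that rose in both labels, in 6 of 25 that fell in both and in 8 of the 73 other carriers, against 10.9% of 7811 windows of genes with at least 5 CPM. Of the windows within 1000 bases of the deposited gene start it stood in 4 of 22, 4 of 22 and 7 of 67, against 791 of 7175 for genes with at least 5 CPM, a limit set after the matches were seen. The metal response core stood in 48 of the 121 carrier windows, or 39.7%, against 36.7% of the 7811. By direction it stood in 7 of 23 that rose in both labels, 9 of 25 that fell and 32 of the 73 others. CAGAC stood in 59 of the 121, or 48.8%, against 46.9%, and by direction in 9 of 23, 12 of 25 and 38 of 73. GGCGCC, a GC-rich Smad-binding sequence, stood in 18.2% of carrier windows against 22.0%, and TGACTCA, the AP-1 site, in 3.31% against 3.28%. GTCTAGAC, a palindromic Smad-binding sequence, and TGATGNAAT, an element of the amino acid response, stood in 0 of the 121, against 0.230% and 0.410% of the 7811. A match is a description of the letters and no match speaks only of these windows.

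**Figure D4:**
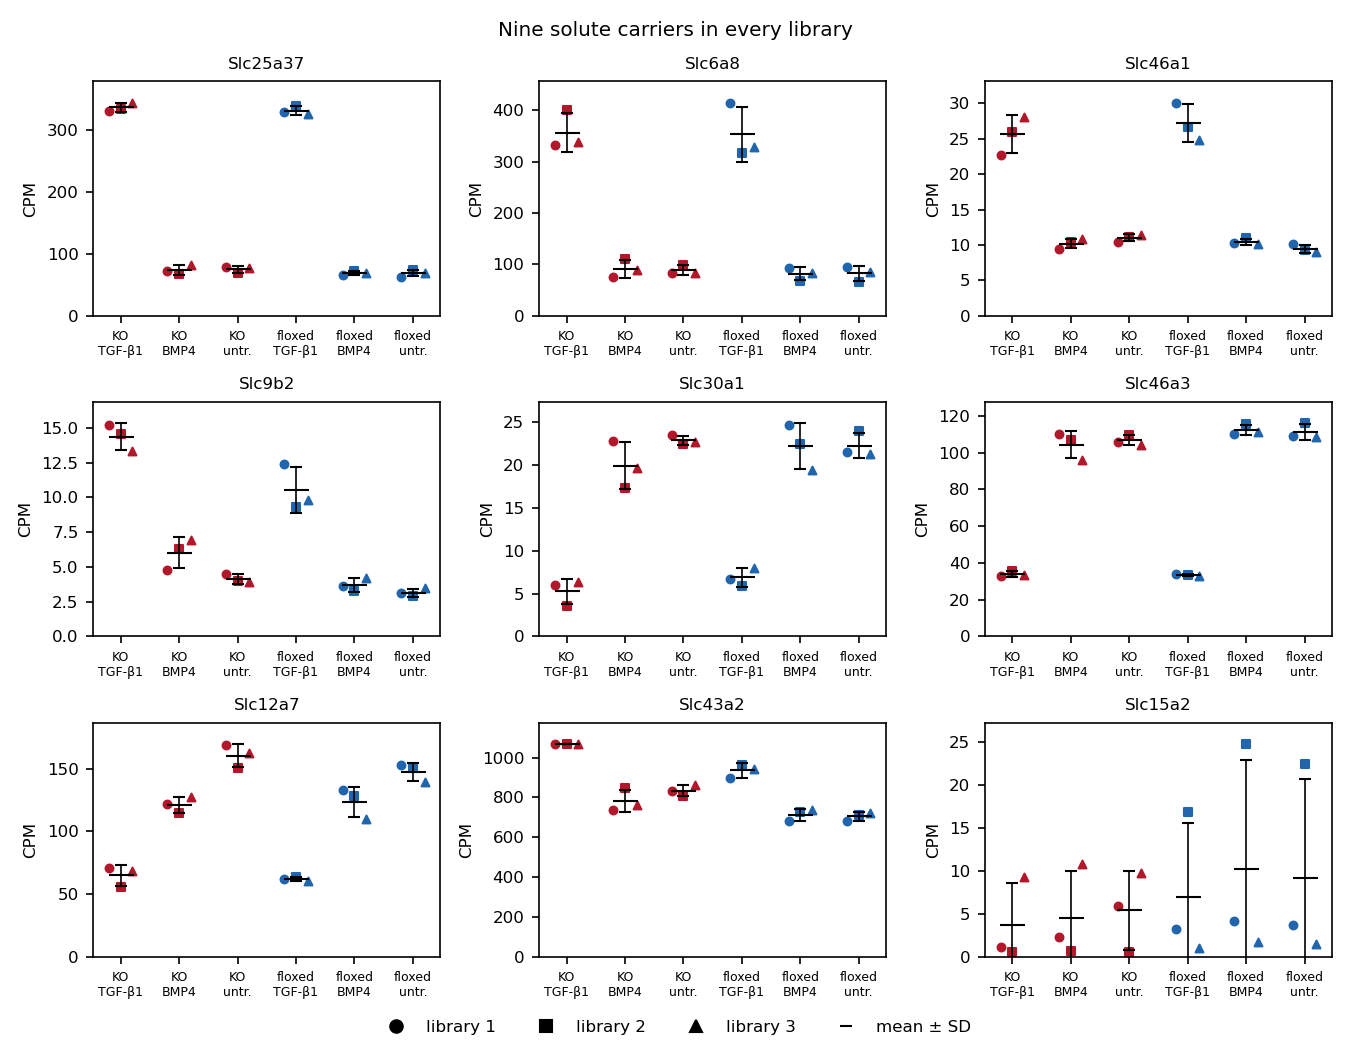
CPM (y axis, from 0) of 9 carriers in every library of the 6 groups; points are libraries, shaped by number, and bars are the mean and SD of 3, cut at 0 for Slc15a2. The first 4 panels and Slc43a2 are high with TGF-β1, Slc30a1, Slc46a3 and Slc12a7 are low with it, and Slc15a2 varies between libraries of each group.

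Few carriers were called with BMP4. In knockout-labelled macrophages 1 of 157 was called, against 0.572% of all genes tested, and in floxed-labelled macrophages 0 were called, against 0.0% of all genes. In the floxed-labelled comparison 15 carriers had an unadjusted p under 0.05 and DESeq2 called 0. The largest log2 change of any carrier with BMP4 was 0.54, of Slc9b2 in knockout-labelled macrophages, where it was at 4.77, 6.31 and 6.97 CPM with BMP4 and at 4.52, 3.99 and 3.88 CPM untreated (adjusted p = 0.121, edgeR). The carrier called was Slc12a7, at 122, 115 and 128 CPM with BMP4 and at 169, 151 and 162 CPM untreated in knockout-labelled libraries, a fall of 0.40 on the log2 scale (adjusted p = 0.031, edgeR; 2.26e-05 with the library number within genotype as a block; 0.0603 in the 15 libraries, and 0.0715 to 0.127 without any of the 3 BMP4 libraries or untreated library 1 or 3). In floxed-labelled libraries it was at 133, 128 and 110 CPM with BMP4 and 153, 150 and 140 CPM untreated, a log2 change of -0.26 with an adjusted p of 0.458 (0.0146 with the block). It was thus below its untreated counterpart of the same number in all 6 pairs. With the block the sodium-calcium exchanger Slc8a1 was also called in knockout-labelled macrophages, at 56.3, 46.7 and 56.3 CPM with BMP4 and 65.3, 53.7 and 64.7 CPM untreated (log2 change -0.20, adjusted p = 0.034, edgeR).

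Set directly against BMP4, TGF-β1 called 33 carriers higher and 35 lower in knockout-labelled macrophages, or 43.3% of the 157, and 34 higher and 38 lower in floxed-labelled ones, or 45.9%. Of all genes tested 32.6% were called in knockout-labelled macrophages, 16.4% higher and 16.2% lower, and 34.8% in floxed-labelled ones, 17.9% higher and 16.9% lower. Of the genes that average 5 CPM or more the shares were 39.9% and 42.9%. These comparisons share the TGF-β1 libraries with those against untreated cells. Slc25a37 was 2.21 and 2.29 higher on the log2 scale than with BMP4 in knockout-labelled and floxed-labelled macrophages, and Slc46a3 had log2 changes of -1.60 and -1.72. For Slc12a7 the log2 changes against BMP4 were -0.88 and -0.96, beside -1.28 and -1.22 against untreated.

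Few carriers were called between the genotype labels. In untreated macrophages 2 carriers were called between knockout-labelled and floxed-labelled libraries, against 2.39% of all genes tested. Slc43a2 was at 833, 806 and 860 CPM in knockout-labelled and at 681, 714 and 723 CPM in floxed-labelled libraries, higher by 0.25 on the log2 scale (adjusted p = 0.0245, edgeR; 0.101 in the 15 libraries, and 0.0516 to 0.106 without knockout-labelled library 1 or 3 or floxed-labelled library 1 or 3). Slc25a5 was at 211, 202 and 207 CPM in knockout-labelled and at 253, 236 and 231 CPM in floxed-labelled libraries, a log2 difference of -0.21 (adjusted p = 0.0376; 0.175 in the 15 libraries, and 0.0579 to 0.137 without any of the knockout-labelled libraries or floxed-labelled library 1 or 2). The erythroid, mast cell and platelet markers, nearly all Pf4, summed to 150 to 205 CPM in untreated knockout-labelled and 219 to 253 CPM in untreated floxed-labelled libraries, and their part in these differences was not tested. With TGF-β1, edgeR called 0 carriers between the labels, against 0.388% of all genes, with 10 at an unadjusted p under 0.05 and 2 called by DESeq2. With BMP4, edgeR called 0 as well, against 0.0272% of all genes, with 10 at an unadjusted p under 0.05 and 1 called by DESeq2. The edgeR test of the difference between the 2 BMP4 responses called 0 carriers, against 0.0% of all genes, with 4 at an unadjusted p under 0.05 and 0 by DESeq2.

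Some carriers varied more by library number than by treatment. Slc15a2, a proton-coupled peptide carrier of the cell surface that was named after its values were seen, spanned 41.9-fold between libraries, from 0.590 to 24.7 CPM. In knockout-labelled libraries numbered 1, 2 and 3 Slc15a2 was at 1.19, 0.590 and 9.28 CPM with TGF-β1, at 2.24, 0.672 and 10.8 CPM with BMP4 and at 5.88, 0.605 and 9.76 CPM untreated. In floxed-labelled libraries it was at 3.21, 16.8 and 1.04 CPM with TGF-β1, at 4.18, 24.7 and 1.71 CPM with BMP4 and at 3.64, 22.4 and 1.51 CPM untreated. The library numbered 3 was the highest in each knockout-labelled group and the library numbered 2 in each floxed-labelled group. No treatment called it in edgeR, with adjusted p of 0.817 and 0.857 for TGF-β1, and with the block its knockout-labelled log2 change of -0.48 had an adjusted p of 0.0335 and its floxed-labelled one of -0.34 an adjusted p of 0.209.

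The dicarboxylate carrier Slc13a3 also varied by number. It was at 81.6, 44.8 and 63.2 CPM with TGF-β1 and at 102, 57.7 and 92.0 CPM untreated in knockout-labelled libraries. Floxed-labelled values were 59.5, 83.3 and 60.4 CPM with TGF-β1 and 74.2, 123 and 75.8 CPM untreated. Each TGF-β1 library was below the untreated library of its number, and the log2 changes of -0.38 and -0.40 had adjusted p of 0.284 and 0.265 without the block and of 2.82e-06 and 1.47e-06 with it (edgeR). Including Slc15a2 and Slc13a3, 5 of the 157 genes had a median coefficient of variation over 20% within groups, and the other 3 were Slc28a2, Slc35g1 and Slc39a4.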

How the data were processed

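Libraries of polyadenylated RNA were sequenced as paired reads of 150 bp, per the labels' protocols. TopHat2 2.0.9, HTSeq 0.6.1 and Cufflinks 2.1.1 and the build mm10 (GRCm38.p6) are named in the submitters' processing notes; the strand setting is not given in the sources used here, so reads of overlapping or antisense genes cannot be told apart. The deposited count columns hold whole reads per gene and were used unchanged; gene lengths are those of the deposited table, and 96 other columns of per-library values were not used. CPM is the count over the library total. Counts were tested with edgeR 4.0.16 (TMM, filterByExpr, quasi-likelihood, R 4.3.3) over all 18 libraries with 1 mean per group, which left 14684 genes and 12 residual degrees of freedom, and p-values were adjusted over all genes tested. The method was checked on simulated counts that held no effect of library number. That check does not cover the pairing of libraries described below.

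The carriers, their substrate classes (1 class per gene, from the best known substrate of its family or member) and the gene lists were chosen with earlier results of these data known. Named genes are the 2 most abundant of each class, up to 3 called in each direction with TGF-β1 in both labels, and up to 8 per direction in other comparisons; Slc7a8, Slc3a2, Slc31a2, Slc5a3, Slc2a8, Slc2a3, Slc8a1, Slc15a2 and Slc39a4 were named after their values were seen. Alternatives were RLE scaling, no low-count filter, DESeq2 1.42.0, the library number as a block, 15 libraries, and each library left out.

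Within a genotype label, same-numbered libraries had deviations from the group means that correlated over 0.1 in all 18 comparisons (0.334 to 0.731). Library numbers were therefore taken as pairing libraries in the fit with the block within genotype. The main test has no block and leaves this pairing out, so its p-values differ from those with the block. Between labels, within a treatment, the correlations were -0.337 to 0.0800. Chi-square over genes divided by its degrees of freedom was 3.69 to 28.6 between libraries of 1 group, so none was a duplicate. A few carriers that the rule for named genes takes are not reported here.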

Additional observations from a re-analysis of the deposited data

How the results depend on the processing

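Counts of carriers called with TGF-β1, against untreated or BMP4, stayed within 1.5 times under every alternative; leaving out 1 library gave 62 to 68 (knockout-labelled) and 59 to 64 (floxed-labelled) against untreated, and 60 to 65 and 62 to 67 against BMP4. The block within genotype called 85 and 87 against untreated, all earlier calls among them. The share of all genes called with this block is not given here. The shares given with the results are of the fit without it, so they are no background for these counts. Small counts moved. With BMP4 the knockout-labelled count of 1 was 2 with the replicate block within genotype, 0 in 15 libraries and 0 to 1 with a library left out; it was 0 without any of the 3 BMP4 libraries or the untreated libraries numbered 1 or 3. The floxed-labelled count of 0 was 1 with no low-count filter and 1 with that block. Between labels, the untreated count of 2 was 6 with no filter, 0 in 15 libraries and 0 to 4 with a library left out; it was 0 without knockout-labelled library 1 or 3 or floxed-labelled library 1, 1 without floxed-labelled library 3 and 4 without knockout-labelled library 2. With TGF-β1 the count of 0 was 3 with no filter and 2 with DESeq2, and with BMP4 it was 6 and 1. The cause was not tested. No named carrier reversed its direction under any of these settings; among the class counts, nucleotide sugars in floxed-labelled macrophages turned, with 3 higher and 2 lower in 15 libraries in place of 3 and 4. Apart from the values given with the results, the block changed no other call stated for a named carrier. No blocked fit within genotype exists for the label comparisons.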

Other observations

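Transporters outside the Slc symbols were counted in the same way with TGF-β1. Of 33 ATP-binding cassette transporters tested, 8 rose and 9 fell in knockout-labelled macrophages and 9 rose and 9 fell in floxed-labelled ones, with medians of -0.06 and -0.11 on the log2 scale. These are 51.5% and 54.5% of the list, beside 34.6% and 33.0% of all genes tested and 43.1% and 40.8% of genes that average 5 CPM or more; nothing particular to the list is read from them. Abca1, the exporter of cholesterol to apolipoprotein A-I, averaged 930 ± 62.1 CPM with TGF-β1 and 444 ± 42.0 CPM untreated in knockout-labelled libraries (SD, n = 3 each), and rose by 1.09 and 1.17 on the log2 scale in the knockout-labelled and floxed-labelled comparisons. Abcg1, which exports cholesterol to lipoprotein particles, rose by 0.79 and 0.92. Abcc5, an exporter of cyclic nucleotides and other organic anions, fell by 1.02 and 0.95, and the multidrug exporter Abcb1b fell by 0.85 and 0.77. Of 48 solute carrier-like transporters, 17 rose and 9 fell in knockout-labelled and 15 rose and 8 fell in floxed-labelled macrophages, or 54.2% and 47.9%, with medians of 0.05 and 0.02. Ank, which exports ATP and pyrophosphate, rose by 0.60 and 0.67. Emb, or embigin, a chaperone of monocarboxylate carriers, fell by 0.52 and 0.48.

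Of 38 genes of the lysosomal amino acid sensing complexes, 5 rose and 10 fell in knockout-labelled and 5 rose and 8 fell in floxed-labelled macrophages, or 39.5% and 34.2%, near the shares of all genes. Rptor, the raptor subunit of mTORC1, averaged 200 ± 21.1 CPM with TGF-β1 and 128 ± 5.61 CPM untreated in knockout-labelled libraries, and rose by 0.66 in knockout-labelled and 0.83 in floxed-labelled macrophages on the log2 scale. Sesn1, a sestrin that restrains mTORC1, averaged 250 ± 12.0 CPM with TGF-β1 and 501 ± 15.6 CPM untreated in knockout-labelled libraries, and fell by 0.97 and 1.02. Of 21 partner proteins and ion pump subunits tested, 1 rose and 7 fell in knockout-labelled and 3 rose and 6 fell in floxed-labelled macrophages, or 38.1% and 42.9%. Ezr, the ezrin scaffold, rose by 1.28 and 1.18. With BMP4, edgeR called 0 genes of these 4 lists in either label. Among the 7 carriers left out by name, 2 rose and 4 fell with TGF-β1 in each label. Of all genes tested, 34.6% were called in knockout-labelled and 33.0% in floxed-labelled macrophages. The 7 were picked by name, and nothing is read from their count.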
